A study of Arabidopsis thaliana with 3 samples.

Results

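FERONIA (FER) and 7 of its relatives were followed in inflorescence meristems dissected from wild-type Arabidopsis thaliana plants, the growing tip of a flowering shoot with its stem cells and youngest flower primordia. The 8 genes were chosen by family, as a list of loci drawn up with earlier results of these data known, and were taken by locus from the 32678 loci of each count file: FER (AT3G51550), THE1 (AT5G54380), HERK1 (AT3G46290), HERK2 (AT1G30570), CVY1 (AT2G39360), ERULUS, also called CAP1 and given here under that name (AT5G61350), ANX1 (AT3G04690) and ANX2 (AT5G28680). The study holds 1 group, 3 RNA sequencing libraries of untreated plants of the Col-0 ecotype, so no treatment, genotype or tissue was compared. Plants had 4 weeks of days with 8 h of light and then 2 weeks of days with 16 h, and each library came from a pool of 10 inflorescences whose flower buds had been taken off down to the stage called P5. Whether the pools came from separate plantings or dissections is not in the labels. The p-values therefore cover only the variation from pool to pool, which may be technical.

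These proteins belong to the CrRLK1L family of receptor kinases, which span the plasma membrane. Outside the cell each carries malectin-like domains that can touch the cell wall, and inside it carries a kinase domain. FER binds secreted RALF peptides together with small membrane-anchored proteins of the LORELEI type, and signals through ROP GTPases, their activators the ROPGEFs, and NADPH oxidases that make reactive oxygen. THE1 was found as the receptor that slows growth when cellulose synthesis fails, and HERK1 and HERK2 act with it in cell elongation. ANX1 and ANX2 keep pollen tubes from bursting, CAP1 is needed for root hair growth, and CVY1 shapes leaf epidermal cells.

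None of the 8 genes shared a stretch as long as a read with any other gene. Stretches of 60 coding bases are shown for all of them from a conserved piece of the kinase domain, the catalytic loop, and show how far the members differ even there. Each starts 3 codons before the histidine, arginine and aspartate of the loop, is written 5′ to 3′ on the coding strand from the RefSeq TAIR10.1 genome, and has in capitals the bases that differ from FER.
FER: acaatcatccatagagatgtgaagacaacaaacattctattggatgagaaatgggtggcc
THE1: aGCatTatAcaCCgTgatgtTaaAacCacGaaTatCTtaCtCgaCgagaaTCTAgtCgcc
HERK1: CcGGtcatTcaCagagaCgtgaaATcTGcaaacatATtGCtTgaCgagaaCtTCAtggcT
HERK2: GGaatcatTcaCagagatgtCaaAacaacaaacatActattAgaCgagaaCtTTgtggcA
CVY1: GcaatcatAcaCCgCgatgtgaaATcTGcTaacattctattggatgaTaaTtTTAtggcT
CAP1: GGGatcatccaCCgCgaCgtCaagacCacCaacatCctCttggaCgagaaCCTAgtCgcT
ANX1: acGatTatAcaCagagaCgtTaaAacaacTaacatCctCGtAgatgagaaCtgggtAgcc
ANX2: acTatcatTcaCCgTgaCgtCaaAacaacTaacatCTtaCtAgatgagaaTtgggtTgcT
Between 13 (HERK2) and 22 (THE1) of the 60 bases differed from FER, and each stretch had differences spread along its length. Over whole proteins the closest pair was ANX1 and ANX2, with 86.4% identical residues, and FER was closest to ANX1 (56.7%). Even ANX1 and ANX2 shared no identical run of coding bases longer than 29. Words of 32 bases from the members' exons were then looked for in the rest of the nuclear reference genome, on either strand. HERK1 had 2 such words elsewhere out of 3198, in a run of 33 bases, and the other 7 members had 0, so no stretch of 100 bases, the read length, was shared.

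**Figure D1:**
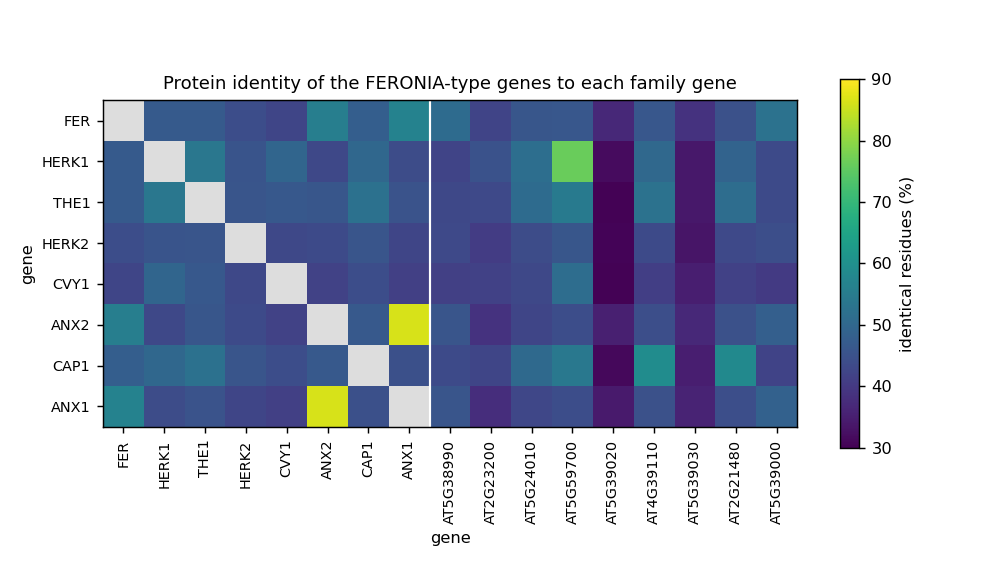
Percent identical residues between each of the 8 FERONIA-type proteins (rows, in order of RNA level) and all 17 proteins of the family (columns), from pairwise alignments of the reference proteins. The white line divides the 8 genes from the 9 other loci, and grey cells are self-comparisons. ANX1 with ANX2 (86.4%) and HERK1 with AT5G59700 (76.4%) stand out from the rest.

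All 8 genes have their whole coding sequence in 1 exon. In TAIR10.1 coordinates FER lies on the minus strand of chromosome 3, from 19117584 to 19120949. THE1 lies on chromosome 5 (22077040 to 22080341, minus), HERK1 on chromosome 3 (17012500 to 17015885, plus), HERK2 on chromosome 1 (10828373 to 10831656, plus) and CVY1 on chromosome 2 (16437338 to 16440544, minus). CAP1 is on chromosome 5 (24667873 to 24670749, plus), ANX1 on chromosome 3 (1273057 to 1276945, minus) and ANX2 on chromosome 5 (10719127 to 10722361, minus). HERK1 and ANX1 overlap genes on the opposite strand, and the strand setting of the counting is not given in the sources used here.

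The libraries held 29094404, 28948463 and 27254114 counts in replicates 1, 2 and 3. All 4 meristem markers, STM, KNAT1, LFY and AP1, were expressed, with mean levels between 88.7 and 263 CPM (counts scaled by each library's nuclear total). The pools also carried markers of later flower tissue in unequal amounts. The 4 pollen markers summed to 3.95, 18.1 and 0.845 CPM, and were highest in replicate 2. The 4 tapetum markers, genes of the layer that feeds developing pollen, summed to 161, 17.1 and 11.9 CPM, and were highest in replicate 1, where AMS had 1694 counts against 11 and 1. A level here averages over all cells of a pool, so fewer cells that use a gene and less RNA per cell cannot be told apart.

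FER was by far the most abundant of the 8. It had 7511, 7287 and 6809 counts in replicates 1, 2 and 3, or 253 ± 4.36 CPM (SD, n = 3). Per length of transcript its TPM-like level (CPM per kilobase of exon, with all libraries brought to 1 common sum) was 132, 129.6 and 129.6. All 3 libraries were within a few percent of each other, and no other member came near FER in any of them. FER ranked 1359 of 26712 nuclear protein-coding genes by this level and 29 of the 1371 whose reference description names a kinase. The rank moves with the length used: it was 2116 and 46 per coding length, and 548 and 11 by CPM without a length.

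HERK1 came next, with 1215, 1488 and 1185 counts and TPM-like levels of 20.9, 25.9 and 22.1. THE1 had 1127, 1477 and 844 counts and TPM-like levels of 19.1, 25.4 and 15.5. HERK2 had 747, 895 and 702 counts and TPM-like levels of 12.7, 15.5 and 13.0. These 3 relatives, which act together in cell elongation, were all highest in replicate 2, and their ranges overlapped for HERK1 with THE1 but not for HERK1 with HERK2. By CPM, 9398 of all 26712 nuclear protein-coding genes were highest in replicate 2, and 4712 had no counts in any library. The meristem markers KNAT1 (87.2, 150.5 and 94.0 CPM) and STM (98.1, 126 and 116 CPM) and the pollen markers were also highest in replicate 2. The meristem markers LFY (77.0, 82.5 and 106.6 CPM) and AP1 (248.6, 258.6 and 281.9 CPM) were instead highest in replicate 3. The part of pollen RNA in the levels of the 3 relatives was not tested. CVY1 had 289, 221 and 215 counts and TPM-like levels of 5.04, 3.91 and 4.07, below HERK2 in every library and with its highest value in replicate 1.

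The other 3 members were at or near 0. ANX2 had 8, 19 and 0 counts, ANX1 had 0, 7 and 0, and CAP1 had 2 in each library. A count of 0 allows up to 0.103, 0.104 and 0.110 CPM in the 3 libraries (3 counts, counting error only), which is the limit for ANX1 in replicates 1 and 3 and for ANX2 in replicate 3. CAP1 had a count in every library, each under those 3. The counts of ANX1 are uncertain beyond this, because it overlaps TPR10 on the opposite strand, which had 597, 810 and 631 counts. The root hair markers set beside CAP1 were low as well: SHV2, EXPA7 and EXPA18 had 0 counts in all libraries and RHS19 had 0, 0 and 2.

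**Figure D2:**
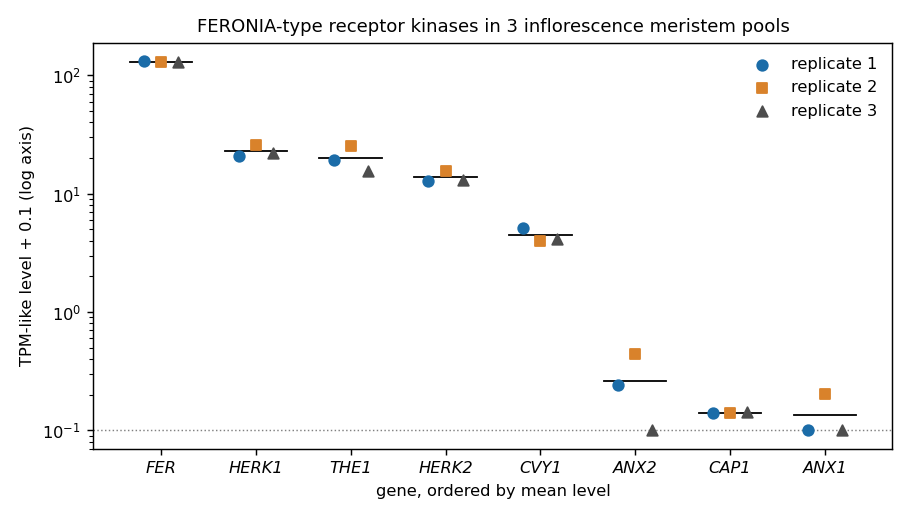
TPM-like level plus 0.1 on a log axis for the 8 genes, ordered by mean, with 1 point for each library and a line at the mean of 3. The dotted line is a level of 0. FER lies between 129.6 and 132, HERK1, THE1 and HERK2 between 12.7 and 25.9, CVY1 between 3.91 and 5.04, and the last 3 genes below 0.4.

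At 1 CPM or more in each library, 5 of the 8 genes (62.5%) were expressed, close to the 63.2% of all 26712 nuclear protein-coding genes. FER alone made up 69.5%, 64.6% and 70.3% of the summed TPM-like level of the 8 genes in replicates 1, 2 and 3. HERK1 held 11.96 ± 0.953% of it, THE1 10.4 ± 2.13%, HERK2 7.15 ± 0.505% and CVY1 2.27 ± 0.360% (SD, n = 3 each). In replicate 3, ANX1 and ANX2 had 0 of the 9757 counts of the 8 genes, where the 95% Wilson interval reaches 0.0394%.

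Within each library the log2 ratio of every gene to FER was taken and tested with limma over 17866 nuclear protein-coding genes. HERK1 stood at -2.51 ± 0.17 relative to FER, THE1 at -2.73 ± 0.36, HERK2 at -3.24 ± 0.16 and CVY1 at -4.88 ± 0.18 (log2, SD, n = 3). All 4 were called lower, with limma adjusted p between 1.15e-05 and 0.000124. That call sets nothing apart, since 90.6% of the genes tested were called lower than FER. ANX1, ANX2 and CAP1 did not reach 1 CPM in any library and were not in this fit.

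The order of the middle members was tested between neighbours, each time with a limma fit over all genes against either of the pair. A pair counts as different only if both fits call it, since in each fit the error of the gene divided by is shared by all genes. FER and HERK1 passed in both (limma adjusted p = 2.91e-05 and 1.46e-05), and so did HERK2 and CVY1, with CVY1 at -1.64 ± 0.32 (log2, SD, n = 3) relative to HERK2 (limma adjusted p = 0.000209 and 6.03e-10). THE1 and HERK1 passed in neither: THE1 lay at -0.22 ± 0.25 relative to HERK1 (limma adjusted p = 0.175 and 0.513), so their order is not settled by 3 pools.

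HERK2 lay at -0.52 ± 0.23 relative to THE1 (log2, SD, n = 3) and was lower in 3 of 3 libraries, but the call depended on the fit. The limma adjusted p was 0.109 with THE1 as the divisor and 0.0115 with HERK2 as the divisor. Leaving out any 1 library ended the second call as well, with adjusted p between 0.0514 and 0.0899 in limma. HERK2 against HERK1, which are not neighbours, was outside the planned pairs and is given without alternatives or libraries left out. HERK2 lay more evenly below HERK1, at -0.74 ± 0.03 (limma adjusted p = 0.00096 and 0.000811). As background, 41.1% of genes were called lower than HERK1 and 42.7% higher, 31.8% lower than THE1 and 40.9% higher, 27.6% lower than HERK2 and 60.2% higher, and 81.3% higher than CVY1.

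The spread between pools is given as a description, with no test between members. The SD of FER was 1.72% of its mean CPM, against a counting error near 1.18%, and 95.7% of the 1380 expressed genes within 2-fold of its CPM varied more. The SD of THE1 was 25.1% of its mean, and 3.99% of the 7588 genes within 2-fold of its CPM varied more. HERK1 at 11.3%, HERK2 at 10.9% and CVY1 at 14.9% lay between them. Of the genes within 2-fold of their CPM, 23.4% varied more than HERK1, 31.8% more than HERK2 and 38.0% more than CVY1.

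No member was called by edgeR's goodness-of-fit test, which asks whether a gene varied between pools more than genes of its level. Of 5 members that passed the low-count filter, 0 were called, where the same test called 2.52% of 18334 genes. The filter needs enough counts in every library. It therefore also left out AMS (1694, 11 and 1 counts), which edgeR called without the filter (edgeR adjusted p = 4.96e-81). THE1 had an unadjusted p of 0.0441 and an adjusted p of 0.763 in edgeR, and it was the only 1 of the 5 with an unadjusted p under 0.05. Without the filter edgeR called 0 of 8, with DESeq2 size factors it called 0 of 5, and against counting error alone (Poisson) all 5 were called.

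A search of the reference proteins for full-length relatives (at least 80% of both proteins aligned) gave 9 further loci, so the family measured here has 17 genes. Of these 9, 6 (66.7%) were expressed, close to the 63.2% of all genes. The highest was AT5G38990, with 1383, 1202 and 1281 counts and a TPM-like level of 25.0 ± 1.82 (SD, n = 3), next to HERK1 at 22.9 ± 2.63. Per coding length HERK1 was the higher in mean, at 16.7 against 15.7 for AT5G38990. The locus lies beside AT5G39000 (1, 0 and 0 counts). Both hold runs of up to 149 bases made of 32-base words that also occur elsewhere in the nuclear genome. Where they occur was not recorded, and the counts of both loci are uncertain for this reason. AT5G39020 and AT5G39030 had shorter runs, of up to 93 and 53 bases. AT2G23200 followed with 828, 862 and 738 counts and a TPM-like level of 17.6 ± 0.778, between THE1 and HERK2. It overlaps AT2G23210 on the opposite strand.

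The remaining loci were lower. AT5G24010 had 275, 435 and 297 counts, AT5G59700 had 221, 224 and 196, and AT5G39020 had 202, 208 and 114. AT4G39110 had 96, 143 and 118 counts, AT5G39030 had 39, 26 and 11, and AT2G21480 had 1, 15 and 0. AT5G59700, with 76.4% of residues identical to HERK1, had a TPM-like level of 3.98 ± 0.130, against 22.9 ± 2.63 for HERK1 (SD, n = 3 each). AT4G39110, the family protein closest to CAP1 (59.3%), was expressed while CAP1 was at 2 counts in each library. ANX1 and ANX2, the most alike pair of FERONIA-type genes (86.4%), were both near 0. Pairs among the other loci were not aligned. FER took 51.9 ± 2.21% of the summed TPM-like level of all 17 genes, and limma called all 11 family genes tested lower than FER, as it did 90.6% of all genes.

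**Figure D3:**
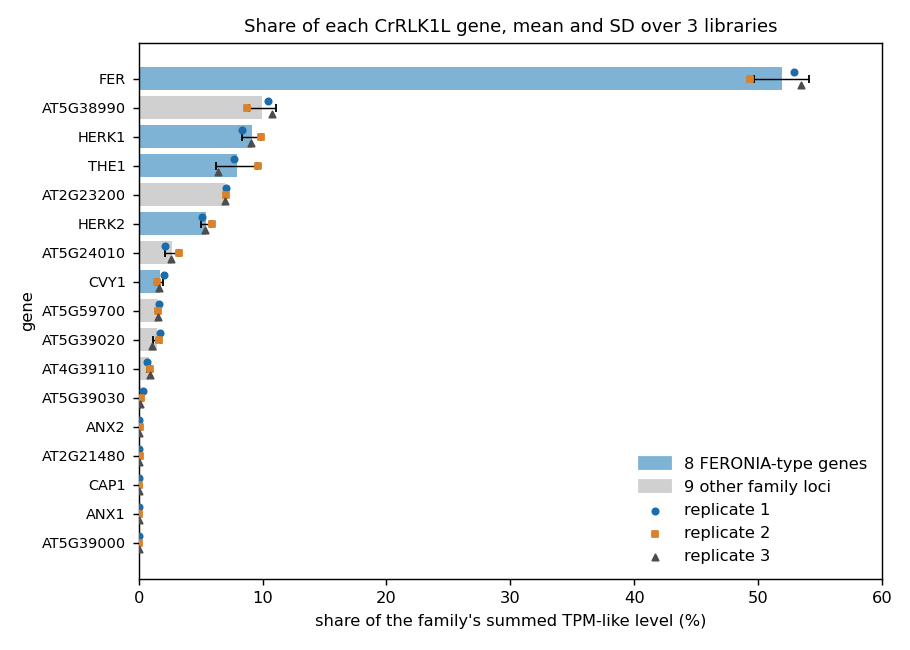
Share of each gene in the summed TPM-like level of the 17 family genes, as the mean of 3 libraries (bars), SD (error bars) and single libraries (points). FER holds 51.9%, AT5G38990 9.97%, HERK1 9.12% and THE1 7.91%, while CAP1, ANX1, ANX2, AT2G21480 and AT5G39000 are near 0.

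The kinases nearest to FER in level over the 3 libraries, by root mean square difference of log2(TPM-like + 0.1) with exon length, were SNRK2.2 (0.0365), a kinase of abscisic acid signalling, GSK1 (0.108), a shaggy-like kinase, and CDKB2;1 (0.114), a cell-cycle kinase of dividing cells. Their TPM-like levels were 130.3 ± 5.23, 126 ± 10.4 and 126 ± 9.62 (SD, n = 3 each), against 130.3 ± 1.24 for FER. Likeness over 3 libraries of 1 tissue is a likeness of level only.

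Of the peptide ligands, 7 of 22 RALF genes (31.8%) were expressed, against 63.2% of all genes. RALFL34, whose peptide is a known ligand of THE1, was the highest, with 3856, 4887 and 3250 counts and a TPM-like level of 170 ± 30.8 (SD, n = 3), above FER in every library. RALFL31 and RALFL24 stood at 33.97 ± 3.34 and 30.1 ± 3.74, the next highest with exon length. Per coding length RALFL34 stood at 328 against 86.0 for FER, and RALF23, at 48.5, came before RALFL24 (42.8) and RALFL31 (41.5). RALFL6 and RALFL29 had 0 counts in every library. RALF1 and RALF23, the peptides best known as FER ligands and named here after their values were seen, differed: RALF1 had 20, 2 and 11 counts and RALF23 had 650, 630 and 609.

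Among the 4 LORELEI-type co-receptors only LLG1, the partner of FER in seedlings and leaves, was expressed. It had 1764, 1823 and 1303 counts and TPM-like levels of 108, 114 and 86.9, against 132, 129.6 and 129.6 for FER. The order turns with the length used: per coding length LLG1 averaged 103 and FER 86.0. LLG2 had 12, 25 and 12 counts, LLG3 had 2, 10 and 0, and LRE, the co-receptor of the female gametophyte, had 0 in every library. Of the leucine-rich repeat extensins, wall proteins that bind RALF peptides, LRX3 was expressed with 1059, 1327 and 742 counts, at a TPM-like level of 19.4 ± 4.90, LRX1 had 0 counts in every library and LRX2 had 0, 4 and 1. LLG1, LLG2 and LLG3 each overlap a gene on the opposite strand, as do ROP4 and FEI1 among the genes below, so their counts carry the same doubt as those of HERK1. The same holds for AMS among the tapetum markers and for EXPA7, EXPA18 and RHS19 among the root hair markers.

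Downstream, 8 of 13 genes of the ROP module and the NADPH oxidases (61.5%) were expressed, close to the 63.2% of all genes. ROPGEF1, the activator of ROPs found with FER, had 6119, 6186 and 6049 counts and a TPM-like level of 167 ± 6.005. The GTPases ROP4 and ROP2 stood at 119 ± 9.48 and 105 ± 9.54 (SD, n = 3 each). Per coding length ROP4 and ROP2 were above ROPGEF1, at 149 and 136 against 119. ROPGEF10 had 1, 0 and 0 counts and RBOHH, an oxidase of pollen tubes, had 0, 4 and 0. RHD2, the oxidase of root hairs, had 11, 0 and 0 counts and was named after its values were seen.

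All 7 further partners of FER were expressed, where 63.2% of all genes were. GRP7, an RNA-binding protein, and EBP1, a growth regulator, are both phosphorylated by FER and stood at TPM-like levels of 767 ± 159 and 192 ± 9.005. EBP1 overlaps AT3G08210 on the same strand. AHA2, a proton pump of the plasma membrane, stood at 23.2 ± 0.877. The edgeR goodness-of-fit test called 2 of the 7, where it called 2.52% of all genes, and both are named after their values were seen. RIPK, a cytoplasmic kinase that acts with FER in roots, had 881, 1006 and 227 counts (edgeR adjusted p = 6.29e-08), low in replicate 3, and without that library edgeR gave an adjusted p of 0.9999. ATL6, a ubiquitin ligase, had 682, 364 and 227 counts (edgeR adjusted p = 0.00911), high in replicate 1, and its call was lost without replicate 1 (edgeR adjusted p = 1) or replicate 3 (edgeR adjusted p = 0.295).

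Wall-sensing genes outside the family were expressed in 6 of 9 cases (66.7%), close to the 63.2% of all genes. FEI1 and FEI2, leucine-rich repeat kinases of wall synthesis, stood at TPM-like levels of 53.8 ± 5.58 and 42.3 ± 6.17, and WAK1, a wall-associated kinase that binds pectin, at 46.5 ± 7.07 (SD, n = 3 each). All 3 were above HERK1 and below FER. WAK5 had 0 counts in every library and WAK3 had 2, 3 and 0.

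**Figure D4:**
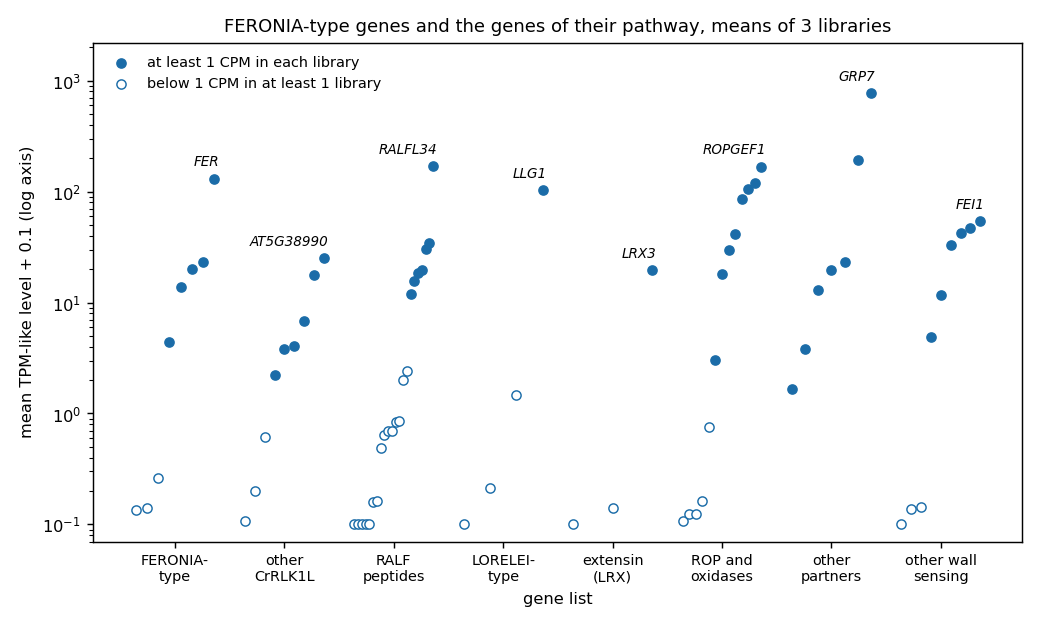
Mean TPM-like level plus 0.1 (log axis, n = 3 libraries) of every gene in 8 lists, with filled circles for genes at 1 CPM or more in each library and the highest gene of each list named. RALFL34 (170), FER (130.3), LLG1 (103) and ROPGEF1 (167) are the highest of their lists with exon length; per coding length they stand at 328, 86.0, 103 and 119.

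The few counts of ANX1 and ANX2 are set here beside those of pollen genes. ANX2 had 8, 19 and 0 counts and ANX1 had 0, 7 and 0, each with its highest value in replicate 2. In edgeR without the low-count filter neither was called (adjusted p = 0.283 for ANX2 and 0.301 for ANX1, unadjusted p = 0.0113 and 0.0123). The pollen marker VGD1 had 75, 353 and 9 counts, AGP6 had 19, 83 and 9, AGP11 had 17, 71 and 4, and PPME1 had 4, 16 and 1. All 4 markers were highest in replicate 2 and lowest in replicate 3. RALFL4 (5, 30 and 0 counts) and RALFL19 (4, 27 and 0), the ligands of ANX1 and ANX2 in pollen tubes, named after their values were seen, were also highest in replicate 2. Of all 5125 nuclear protein-coding genes with counts but below 1 CPM in a library, 38.9% were highest in replicate 2. Without replicate 2, ANX1 had 0 counts and ANX2 had 8 and 0. On the opposite strand ANX1 overlaps TPR10 (597, 810 and 631 counts) and AT3G04700 (36, 51 and 24), both also highest in replicate 2. The part of pollen RNA in the counts of ANX1 and ANX2 was not tested, nor was that of the overlapping genes in the counts of ANX1. AT4G39110 had 96, 143 and 118 counts and LLG2 had 12, 25 and 12, both highest in replicate 2 and lowest in CPM in replicate 1. AT2G21480, with 1, 15 and 0 counts, and LLG3, with 2, 10 and 0, were highest in replicate 2 and lowest in replicate 3.

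**Figure D5:**
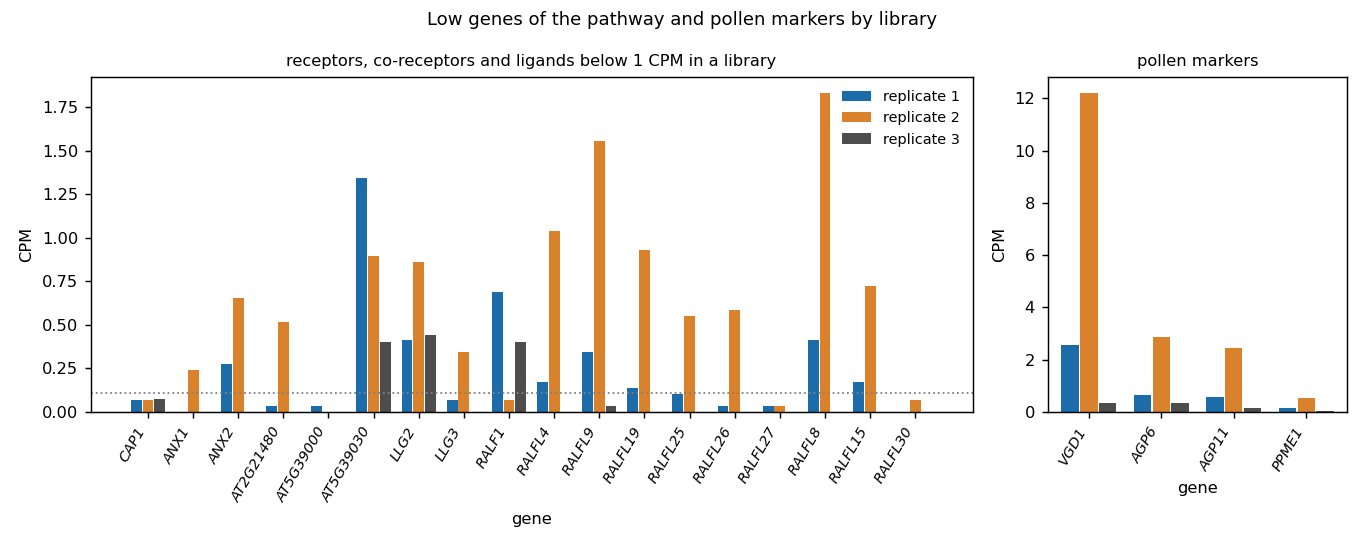
CPM in each library (bars) of all 18 family, LORELEI-type and RALF genes that had counts but were below 1 CPM in a library (left), and of the 4 pollen markers (right, on a larger scale). The dotted line is the 0.110 CPM that a count of 0 allows in replicate 3. Replicate 2 has the highest bar for 14 of the 18, by library size alone for RALFL27, and the exceptions are CAP1, AT5G39000, AT5G39030 and RALF1.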

How the data were processed

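RNA of 3 pools was extracted with the PicoPure kit and sequenced as strand-specific TruSeq libraries in paired reads of 100 bp, per the labels' protocols. Raw counts of reads for each gene were deposited, without normalisation. The submitters' processing notes list HTSeq 0.6.1, TopHat2 2.1.0, Bowtie2 2.2.5, FastQC and the build TAIR10. Not given in the sources used here: strand setting, annotation release and the rule for multi-mapping reads.

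Loci were matched to RefSeq TAIR10.1 (31912 of 32678). CPM used nuclear counts, and TPM-like levels divided them by exon length. A gene counts as expressed at 1 CPM in each library. Variation was tested with edgeR 4.0.16 (goodness of fit, TMM, trended dispersion, filterByExpr) and ratios with limma 3.58.1 on log2(TPM-like + 0.1) for genes at 1 CPM in at least 1 library, two-sided, with Benjamini-Hochberg adjustment over each table and a threshold of 0.05. An exact sign-flip test over 3 libraries cannot go below 0.25. Both steps were tested on simulated data, with 1 variation for all genes, set below the trend fitted for the tested members. The goodness-of-fit test recovered 74 of 100 genes planted at 2-fold in replicate 1, and 100 of 100 at 4-fold. The ratio step called 14569 of 14569 genes over 2-fold from FER in the right direction. Full-length relatives came from BLAST 2.17.0.

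The members, lists and rules were chosen with earlier results of these data known. Named are all family genes, up to 3 of the highest and up to 2 of the lowest genes below 1 CPM of each other list (lists of up to 4 genes whole), and the 3 kinases nearest to FER. Of 103 list genes, 12 were left out because the reference does not give the name. The alternatives were TMM and DESeq2 1.42.0 scaling, other thresholds, filters, lengths and pseudocounts, Poisson variation, and each library left out.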

Additional observations from a re-analysis of the deposited data

How the results depend on the processing

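No paired analysis was possible because the study has 1 group. The number of expressed members stayed at 5 under 0.5 CPM, 5 CPM, 10 counts in each library and without each replicate in turn. All 4 ratios to FER, and the ratios of CVY1 to HERK2 and of THE1 to HERK1, kept their direction and call under each alternative run (pseudocount of 1, no filter, coding length, no length correction, each replicate left out). THE1 relative to HERK2 was called with HERK2 as the divisor, but not without any 1 replicate, at log2 ratios of 0.42 to 0.65; fewer samples entered those fits. Against Poisson variation edgeR called 11179 genes and 5 members in place of 462 and 0. Without 1 replicate it called 216 to 289 genes, from 2 libraries in place of 3. DESeq2 size factors (459 genes) and no filter (568) moved this little. Coding length gave TPM-like levels of 86.0 for FER, 16.7 for HERK1, 14.3 for THE1, 9.83 for HERK2 and 3.16 for CVY1, in the same order, but turned the order of FER and LLG1, of HERK1 and AT5G38990, of ROPGEF1 and ROP4, and of RALF23 and RALFL31 (lengths differ by construction). In alternatives added after the data were seen, FER ranked 2116 of 26712 genes per coding length and 548 by CPM, and 1 of the 4 pollen markers was expressed without replicate 3, and 0 with all libraries. Depth limits ANX1, ANX2 and CAP1, whose counts were between 0 and 19 in each library.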

Other observations

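Of 10 RALF genes with counts but below 1 CPM in a library, 9 had their highest CPM in replicate 2, where 38.9% of 5125 such genes among all nuclear protein-coding genes did. They include RALFL8 (12, 53 and 0 counts), RALFL9 (10, 45 and 1), RALFL15 (5, 21 and 0), RALFL25 (3, 16 and 0) and RALFL26 (1, 17 and 0), all chosen after their values were seen. RALFL8, RALFL9 and RALFL26 overlap a gene on the opposite strand, so their counts are uncertain if counting ignored strand. RALFL27, with 1, 1 and 0 counts, is 1 of the 9 by library size alone, and RALF1 is the exception.

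The tapetum markers ACOS5 (1343, 12 and 2 counts), CYP704B1 (317, 3 and 0) and TKPR1 (1321, 469 and 322) had their highest value in replicate 1, as did AMS. TKPR1 and AMS also overlap genes on the opposite strand. The TPM-like level of CVY1 was also highest in replicate 1, at 5.04, and was 3.91 and 4.07 in replicates 2 and 3. So was that of FER, and by CPM 7489 of all 26712 nuclear protein-coding genes were highest there, while 4712 had no counts in any library. CVY1 was not called by edgeR's goodness-of-fit test (unadjusted p = 0.634, adjusted p = 1), and the part of tapetum RNA was not tested.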
